A study of Mus musculus with 16 samples.

Results

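The comparison described here sets adipose tissue macrophages (ATMs) of IRF5-KO mice against those of WT mice on long-term high-fat diet (LT-HFD), that is the 4 libraries labelled KO and the 4 labelled WT at 12 weeks, 8 of the 16 libraries of the series. The other 8 libraries are of the same genotypes after 4 weeks (short-term, ST-HFD) and serve below for the difference between diet durations. Durations are given as labelled. A plot in the study appears, by eye, to show the WT samples of both durations the other way round, so each value given for a duration, and the sign of each difference between them, rests on the labels. IRF5-KO mice carried floxed Irf5 alleles on both chromosomes and a LysM-Cre allele, in which the Cre recombinase is expressed from the Lyz2 locus, so that deletion is directed to cells of the myeloid lineage that use this promoter. The Irf5 allele was of the C57BL/6 background and the Cre line was a B6.129P2 stock. The sources used here do not say whether WT mice were littermates or carried Cre or floxed alleles, nor whether a sample was 1 mouse or a pool. All mice were males, between 7 and 10 weeks old when the experiments began, and all 8 received the HFD. F4/80+ cells were selected from the epididymal fat pad, and 1 total RNA library depleted of ribosomal RNA was made for each sample. The p-values therefore measure the spread between these samples. All values below are from the deposited gene counts, divided by the effective library size and given as CPM. CPM is not corrected for gene length, so levels are compared between libraries and not between genes.

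IRF5 is a transcription factor that is activated downstream of Toll-like receptors and the adaptor MyD88 and drives genes of inflammatory cytokines, chemokines and type I interferon. In lean fat, ATMs are mostly tissue-resident cells with scavenger and lectin receptors such as Mrc1, Cd163 and Timd4. In obesity, monocytes are recruited through chemokines of the CCR2 axis, and macrophages that surround dying adipocytes take up lipid and express Trem2, Cd9 and lysosomal genes. ATMs also present antigen on MHC class II molecules, whose genes depend on the coactivator CIITA.

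The 8 libraries held between 3279332 and 3792898 counts, of which 3 features (mt-Rnr1, mt-Rnr2 and mmu-mir-689-2) made up 26.1% to 34.5%, and no 2 libraries of a group were duplicates. Of 37310 gene identifiers, 10987 passed the filter on low counts and were tested. Some libraries stood apart. WT replicate 2 had the lowest depth and lay at the end of the second principal component (22.9% of the variance), and WT replicate 4 and IRF5-KO replicate 2 lay at opposite ends of the first (32.8%). The summed level of 14 macrophage markers was 11520 to 14410 CPM in WT and 9595 to 10250 CPM in IRF5-KO, and without Lyz2 it was 8626 to 10710 and 7909 to 8455 CPM, so the groups did not overlap. These markers also include the abundant Mrc1, C1qa and C1qc, which were lower in IRF5-KO as given below. Of the 14, 10 had a log2 fold change (IRF5-KO minus WT) below 0 and 4 above it. The sum therefore does not stand for each marker, and the level of macrophage RNA as a whole was not tested. The marker Adgre1, which encodes F4/80, was at 583 to 803 CPM in WT and 669.9 to 988 CPM in IRF5-KO. Markers of other cells were present. Fibroblast and preadipocyte markers summed to 18240 CPM in WT replicate 4 and 5800.0 to 6435 CPM in the other WT libraries, and to 5664 to 12910 CPM in IRF5-KO. The 10 endothelial markers, Fabp4 among them, summed to 169 to 216 CPM in WT and 196 to 398 CPM in IRF5-KO, and the 14 T cell markers to 41.2 to 97.8 and 63.3 to 93.1 CPM. The neutrophil genes Camp, Ly6g and Ngp had no count in any library, and Cd3d, Cd3e, Cd3g, Cd79a, Adipoq and Msln did not reach the filter. Other members of these lists did pass it, namely 6 of 13 adipocyte, 5 of 10 B and plasma cell, 4 of 14 T cell, 1 of 9 neutrophil and 1 of 10 mesothelial markers. The adipocyte markers summed to 126 to 153 CPM in WT and 118 to 188 CPM in IRF5-KO. In bulk RNA, fewer cells of a type and less RNA per cell cannot be told apart.

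Irf5 (ENSMUSG00000029771, GRCm38 chromosome 6, 29526625 to 29541871) is the targeted gene and was read first, as a check of the labels. Counts gave 205, 179.5, 209 and 166 CPM in WT-labelled replicates 1 to 4 and 201, 252, 245 and 201 CPM in the IRF5-KO-labelled replicates. The lowest 2 values were WT and the highest 2 IRF5-KO, and the groups overlapped, with a log2 fold change (IRF5-KO minus WT) of 0.24 (standard error, SE, 0.12, adjusted p = 0.853 in the edgeR quasi-likelihood test (Benjamini-Hochberg adjustment)). The count of the targeted gene was therefore no lower in the IRF5-KO-labelled libraries than in the WT-labelled ones. A count over the whole gene does not separate deleted from retained exons, and Irf5 overlaps Tnpo3 on the opposite strand. WT and IRF5-KO below stand for the libraries so labelled. Of the other interferon regulatory factors, Irf1 was at 98.2 to 158 CPM in WT and 97.1 to 117 CPM in IRF5-KO (log2 fold change -0.33, SE 0.14, unadjusted p = 0.0413), and Irf4, which acts in alternatively activated macrophages and dendritic cells, at 27.9 to 37.8 CPM in WT and 10.2 to 28.8 CPM in IRF5-KO (log2 fold change -0.53, SE 0.27, unadjusted p = 0.0722). Of 27 tested receptors and adaptors upstream of IRF5, 2 had an unadjusted p under 0.05, a share near the 5.72% of all tested genes, and both were lower, the receptor of unmethylated DNA Tlr9 (log2 fold change -0.57, SE 0.17) and the costimulatory receptor Cd40 (-0.60, SE 0.25).

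Only the lysozyme genes Lyz1 and Lyz2 passed an adjusted p of 0.05 in the edgeR quasi-likelihood test, 2 of 10987 genes or 0.0182%. Both encode the antibacterial enzyme lysozyme, and Lyz2, the form of macrophages, is also the locus that holds Cre in IRF5-KO mice. Lyz2 (ENSMUSG00000069516, chromosome 10, 117277331 to 117282321) was at 3864, 3703, 3973 and 2899 CPM in WT-labelled replicates 1 to 4 and 1660, 1687, 2009 and 1649 CPM in the IRF5-KO-labelled replicates. All 4 IRF5-KO values lay below all 4 WT values, so Lyz2 fell 2.06-fold (3610 ± 487 CPM against 1751 ± 173 CPM, SD, n = 4 each), a log2 fold change of -1.04 (SE 0.14). Lyz1 (ENSMUSG00000069515, chromosome 10, 117287797 to 117292868) is the neighbouring paralog, whose start lies 10.5 kb from that of Lyz2. It was measured at 31.6, 49.4, 27.9 and 29.5 CPM across the WT-labelled and 151, 80.4, 136 and 201 CPM across the IRF5-KO-labelled libraries. Every IRF5-KO value lay above every WT value and Lyz1 rose 4.12-fold, a log2 fold change of 2.04 (SE 0.27). The adjusted p of both genes was 0.0484 in the edgeR quasi-likelihood test (Benjamini-Hochberg adjustment). Leaving out 1 library moved the adjusted p to between 0.00446 and 0.378 for Lyz1, which passed without IRF5-KO replicate 2 only, and to between 0.0218 and 0.378 for Lyz2, which passed without WT replicate 4 only, while the log2 fold changes over all settings stayed between 1.83 and 2.46 and between -1.14 and -0.98. On ST-HFD the log2 fold changes were -0.96 for Lyz2 and 2.52 for Lyz1, and the difference between the durations had an unadjusted p of 0.699 and 0.217.

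**Figure D1:**
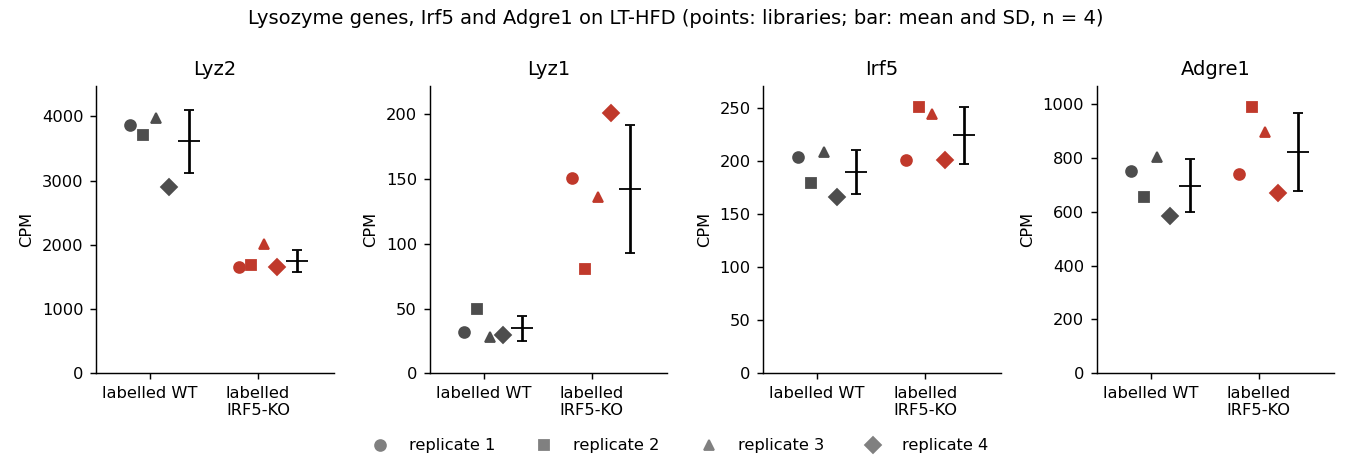
Level in CPM (vertical axes, from 0) of Lyz2, Lyz1, Irf5 and Adgre1 in the 4 libraries labelled WT (grey) and the 4 labelled IRF5-KO (red) on LT-HFD, 1 point per library with a symbol for each replicate number, and bars for the mean and SD. Lyz2 and Lyz1 separate the groups in opposite directions, whereas the Irf5 and Adgre1 values overlap.

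The 2 lysozyme sequences are shown because their similarity bears on how reads were counted between them. The first 150 coding bases, from GENCODE M21 (GRCm38, minus strand of chromosome 10, across 2 coding exons of each gene, chr10:117291180-117292838 and chr10:117280792-117282242), are printed 5′ to 3′ with the bases that differ in capitals.
Lyz1: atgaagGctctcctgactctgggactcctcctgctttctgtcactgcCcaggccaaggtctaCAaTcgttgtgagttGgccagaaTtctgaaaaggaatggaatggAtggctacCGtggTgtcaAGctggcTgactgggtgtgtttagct
Lyz2: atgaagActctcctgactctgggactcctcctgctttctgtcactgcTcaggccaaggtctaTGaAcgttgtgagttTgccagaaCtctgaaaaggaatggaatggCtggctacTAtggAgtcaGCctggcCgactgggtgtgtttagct
Over the 444 coding bases, 22 differ (95% identity), 14 of them within these 150, and the longest identical run is 118 bases, longer than the 100 bases of a read. Of windows of 100 bases, 24 are shared by the 1164 of the Lyz1 transcript and the 1217 of the Lyz2 transcript. A read from such a window cannot by itself be given to 1 gene. Reads were sequenced in pairs, so that its mate may place it, and how the authors treated reads that match both genes is not given in the sources used here. Lyz1 counts made up 0.697% to 1.32% of the lysozyme counts in WT and 4.55% to 10.8% in IRF5-KO. With the counts of both genes summed, the level was 2928 to 4000 CPM in WT and 1767 to 2145 CPM in IRF5-KO, with a log2 fold change of -0.94 (SE 0.14). In the fit where the sum replaced both genes, it had the smallest p of the genes tested and an adjusted p of 0.224 in the edgeR quasi-likelihood test (Benjamini-Hochberg adjustment).

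The genes around both loci were examined because the Cre allele and the floxed allele come from other mouse lines. Within 5 Mb of Lyz2, 36 genes were tested and 2 had an unadjusted p under 0.05 (5.56%), Lyz1 and Mdm1, a gene of centrioles. Mdm1 was at 6.17, 5.49, 5.74 and 6.11 CPM across the WT-labelled and 11.8, 8.07, 8.76 and 9.05 CPM across the IRF5-KO-labelled libraries, without overlap (log2 fold change 0.68, SE 0.23, unadjusted p = 0.0134). Within 5 Mb of Irf5, 2 of 37 genes did (5.41%), both lower, the regulator of nuclear genes for mitochondria Nrf1 (log2 fold change -0.42, SE 0.19) and the non-coding RNA Lncpint (-0.63, SE 0.24). Both shares were near the 5.72% of all 10987 tested genes that had an unadjusted p under 0.05.

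Across the tested genes, 245 (2.23%) had an unadjusted p under 0.05 and were higher in IRF5-KO, and 384 (3.5%) were lower. Of these, 34 (0.309%) were higher and 42 (0.382%) lower by over 1 on the log2 scale. All 4 IRF5-KO values lay above all 4 WT values for 141 genes (1.28%) and below them for 192 genes (1.75%). The log2 fold change was above 0 for 5501 genes (50.1%). Apart from the lysozyme genes, the smallest adjusted p was 0.639 in the edgeR quasi-likelihood test (Benjamini-Hochberg adjustment), so the genes below are described by their levels and unadjusted p, and none of them passed the adjusted threshold in this test. With DESeq2's Wald test 6 genes passed, adding Plbd1, Ccl8, Dnase1l3 and Ciita to the lysozyme genes, and with edgeR on all genes without a filter also 6, adding Plbd1, Ccl8, Mgl2 and Dnase1l3. Leaving out 1 library left 0 to 2 calls, with Lyz2 and Plbd1 called without WT replicate 4, Lyz1 without IRF5-KO replicate 2, and no gene without any of the other 6. With 1 library left out, between 151 of 11165 genes (without IRF5-KO replicate 3) and 492 of 11141 (without WT replicate 4) were higher at an unadjusted p under 0.05, and between 169 of 11216 (without WT replicate 2) and 567 of 11185 (without IRF5-KO replicate 4) lower, and the leave-out counts of the lists below stand beside these. The strand setting of the counting is not given in the sources used here, so that reads of genes overlapping on opposite strands, among those described Irf5 with Tnpo3, Ciita with Dexi, Cxcl10 with Art3, H2-DMa with Brd2, Adamts7 with Tbc1d2b and Tmem176a with Tmem176b, may not be separated, and Rab4a and Zc3h18 share a strand with the overlapping Gm20388.

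CC chemokines, which attract monocytes and other leukocytes, had a log2 fold change below 0 for 11 of 12 tested genes, and 6 had an unadjusted p under 0.05, all lower, beside 3.5% of all tested genes. Their median log2 fold change was -0.74, against 4e-04 over all tested genes. Ccl8, a monocyte chemoattractant, was at 174, 362, 210.4 and 205 CPM in WT-labelled replicates 1 to 4 and 122, 89.0, 87.9 and 132 CPM in the IRF5-KO-labelled replicates. WT replicate 2 was the highest, and every IRF5-KO value lay below the lowest WT value, a 2.21-fold lower level (log2 fold change -1.14, SE 0.23, unadjusted p = 0.000316). The related Ccl12, a ligand of CCR2, was at 16.1, 22.7, 16.7 and 18.6 CPM across the WT-labelled and 11.04, 9.41, 5.75 and 6.33 CPM across the IRF5-KO-labelled libraries. Its groups did not overlap either (log2 fold change -1.17, SE 0.24, unadjusted p = 0.000395). Ccl22, a ligand of CCR4 made by dendritic cells and macrophages, was at 20.4, 26.1, 9.84 and 10.6 CPM across the WT-labelled and 7.81, 5.11, 5.75 and 9.35 CPM across the IRF5-KO-labelled libraries. Here 2 WT libraries were high and the other 2 lay close to the highest IRF5-KO value, still without overlap (log2 fold change -1.25, SE 0.34, unadjusted p = 0.00371).

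The other 3 CC chemokines with an unadjusted p under 0.05 overlapped between groups. Ccl24, an eosinophil attractant of alternatively activated macrophages, was at 84.5, 179, 47.0 and 90.8 CPM across the WT-labelled and 59.2, 13.7, 31.5 and 75.4 CPM across the IRF5-KO-labelled libraries, with WT replicate 2 far above the rest and IRF5-KO replicate 2 far below (log2 fold change -1.16, SE 0.47). Ccl5, an attractant of T cells and monocytes, was at 5.58 to 15.3 CPM in WT and 2.96 to 8.75 CPM in IRF5-KO (log2 fold change -1.13, SE 0.42), and Ccl7, a ligand of CCR2, at 31.1 to 103 CPM in WT and 18.1 to 63.0 CPM in IRF5-KO (-0.90, SE 0.40). Ccl2, the main ligand of CCR2, was at 130.1, 236, 115 and 85.2 CPM across the WT-labelled and 146, 60.8, 77.5 and 96.2 CPM across the IRF5-KO-labelled libraries, and the groups overlapped (log2 fold change -0.57, SE 0.32, unadjusted p = 0.0962). The monocyte attractants Ccl6 and Ccl9 overlapped widely, since Ccl6 was at 1345 to 2310 CPM in WT and 1401 to 1891 CPM in IRF5-KO and Ccl9 at 961 to 1134 CPM in WT and 945 to 1475 CPM in IRF5-KO. Without WT replicate 2 3 CC chemokines had an unadjusted p under 0.05, and their median was -0.51. Without both replicates numbered 2 there were also 3 and the median was -0.37, and without WT replicate 4 and IRF5-KO replicate 1 there were 10 of 13 and it was -1.26. Over all genes, 156 of 11093 and 397 of 10936 were lower at that level in these 2 fits. Ccl8, Ccl12 and Ccl22 kept an unadjusted p under 0.05 without any 1 library, at most 0.0145.

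The 250 bases before the RefSeq start of Ccl8 (chr11:82114935-82115184, plus strand) and Ccl12 (chr11:82101595-82101844, plus strand) are shown as the upstream regions of the 2 chemokine genes with the smallest p (RefSeq, GRCm38.p6). Capitals mark a TATA box (letters TATAAA) and the core of an interferon regulatory factor element (AANNGAAA, or its reverse complement), searched on both strands.
Ccl8: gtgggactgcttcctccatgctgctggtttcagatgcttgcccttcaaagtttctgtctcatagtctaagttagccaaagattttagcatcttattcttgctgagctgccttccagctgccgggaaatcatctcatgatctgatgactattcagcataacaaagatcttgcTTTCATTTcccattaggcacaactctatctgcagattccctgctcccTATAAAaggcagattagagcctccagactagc
Ccl12: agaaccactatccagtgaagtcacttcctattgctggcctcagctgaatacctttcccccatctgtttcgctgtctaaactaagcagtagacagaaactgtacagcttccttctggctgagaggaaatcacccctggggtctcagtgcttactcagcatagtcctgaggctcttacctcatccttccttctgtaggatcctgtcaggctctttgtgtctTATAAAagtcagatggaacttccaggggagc
The TATA box lies 32 bases before the start of Ccl8 and 31 before that of Ccl12, and the element core of Ccl8 lies at 79 on the opposite strand. Aligned without gaps, the windows were 36% identical. Of all 32851 RefSeq windows of this length, 12.4% hold the TATA letters and 21.3% the element core. Of the 6 tested CC chemokines with a window, 3 held the former and 2 the latter.

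**Figure D2:**
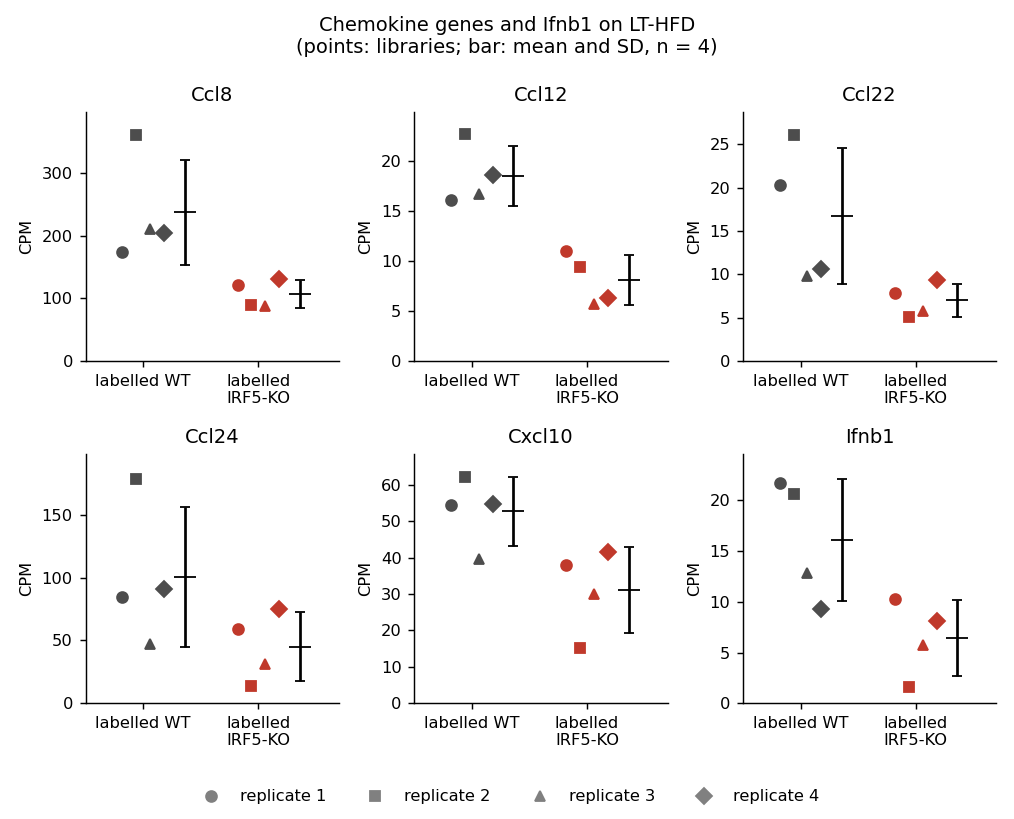
Level in CPM (vertical axes, from 0) of 5 chemokine genes and of Ifnb1 in the libraries labelled WT (grey) and IRF5-KO (red) on LT-HFD, with 1 point per library and the mean and SD at the right of each group. Ccl8, Ccl12 and Ccl22 do not overlap between groups, WT replicate 2 is the highest value of Ccl8, Ccl12, Ccl22, Ccl24 and Cxcl10, and IRF5-KO replicate 2 is the lowest of Ccl22, Ccl24, Cxcl10 and Ifnb1.

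Of 10 tested chemokine receptors, all had a log2 fold change below 0 and 3 an unadjusted p under 0.05, beside 3.5% of all tested genes, with a median of -0.29. Ccr2, the receptor that brings monocytes into fat, was at 163, 140.1, 127 and 109.9 CPM across the WT-labelled and 105, 57.0, 113 and 94.1 CPM across the IRF5-KO-labelled libraries. IRF5-KO replicate 2 was the lowest, and only IRF5-KO replicate 3 exceeded the lowest WT value (log2 fold change -0.55, SE 0.20, unadjusted p = 0.0175). The others were Cxcr3, the receptor of Cxcl9 and Cxcl10 (log2 fold change -1.17, SE 0.48), and the decoy receptor Ccrl2 (-0.34, SE 0.15). Without WT replicate 1, no chemokine receptor had an unadjusted p under 0.05, and without IRF5-KO replicate 2 the median was -0.07. Of 9 CXC chemokines, 3 had a log2 fold change above 0, and 2 had an unadjusted p under 0.05, both lower, beside the same 3.5%, with a median of -0.19. Cxcl10, which attracts T cells through CXCR3, was at 54.5, 62.1, 39.6 and 54.7 CPM across the WT-labelled and 38.0, 15.1, 30.1 and 41.6 CPM across the IRF5-KO-labelled libraries, with IRF5-KO replicate 2 lowest and a slight overlap (log2 fold change -0.76, SE 0.26, unadjusted p = 0.0138). Cxcl13, which attracts B cells, was at 3.75, 21.3, 188 and 11.9 CPM across the WT-labelled and 18.04, 5.38, 10.4 and 10.9 CPM across the IRF5-KO-labelled libraries, and its log2 fold change of -2.33 (SE 0.94) rested on WT replicate 3. With that library left out its unadjusted p was 0.852. The neutrophil attractants Cxcl1 (log2 fold change 0.15, SE 0.23) and Cxcl2 (-0.19, SE 0.21) differed by less than 2 SE.

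Inflammatory cytokines and mediators, the best known products of IRF5 signalling, had a log2 fold change below 0 for all 14 tested genes, and 3 had an unadjusted p under 0.05, beside 3.5% of all tested genes that were lower, with a median of -0.36. Ifnb1, the gene of interferon beta, was at 21.7, 20.6, 12.8 and 9.29 CPM in WT-labelled replicates 1 to 4 and 10.2, 1.61, 5.75 and 8.14 CPM in the IRF5-KO-labelled replicates. WT replicates 1 and 2 were the highest and IRF5-KO replicate 2 the lowest, and IRF5-KO replicate 1 exceeded WT replicate 4 (log2 fold change -1.32, SE 0.43, unadjusted p = 0.0104). The costimulatory ligand Tnfsf9 was at 12.7 to 28.1 CPM in WT and 12.3 to 19.7 CPM in IRF5-KO (log2 fold change -0.55, SE 0.25). The acute phase gene Saa3 was at 11, 139, 5.74 and 26.0 CPM across the WT-labelled and 13.5, 5.92, 10.4 and 18.4 CPM across the IRF5-KO-labelled libraries, and WT replicate 2 was far above the rest. Its unadjusted p was 0.609 without that library. Tnf was at 135 to 257 CPM in WT and 138 to 246 CPM in IRF5-KO (log2 fold change -0.25, SE 0.21), Il6 at 6.17 to 22.3 CPM in WT and 3.23 to 12.7 CPM in IRF5-KO (-0.80, SE 0.49) and Il1b at 3.72 to 5.19 CPM in WT and 1.61 to 7.81 CPM in IRF5-KO (-0.25, SE 0.49), so none of these 3 differed beyond the spread between libraries. Il1a, Il12b, Ifng and Nos2 did not reach the filter on low counts. With 1 library left out, 1 to 6 of the 14 genes had an unadjusted p under 0.05, the fewest without WT replicate 2 or without IRF5-KO replicate 2 and the most without IRF5-KO replicate 1. The median was -0.24 without IRF5-KO replicate 2, and -0.0937 without both replicates numbered 2, with 2 of the 14 above 0.

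Among 15 regulatory cytokines and feedback genes, 2 had an unadjusted p under 0.05, beside 5.72% of all tested genes, and both were lower without overlap, beside 1.75% of all tested genes. Zfp36, which destabilises cytokine mRNAs, was at 1055, 1116, 955 and 912 CPM across the WT-labelled and 864, 674, 621 and 717 CPM across the IRF5-KO-labelled libraries (log2 fold change -0.49, SE 0.13, unadjusted p = 0.0029). Every IRF5-KO library was below the lowest WT library for it. Dusp2, a phosphatase of MAP kinases, was at 50.7 to 62.8 CPM in WT and 32.9 to 50.0 CPM in IRF5-KO (log2 fold change -0.44, SE 0.15). The inhibitor of NF-kB Nfkbia (-0.29, SE 0.13, unadjusted p = 0.0507) and the anti-inflammatory cytokine Il10 (-0.06, SE 0.27) did not pass that level. The median of the list was -0.26, and -0.11 without both replicates numbered 2. Without IRF5-KO replicate 1, 5 of the 15 were lower, beside 333 of all 11157 genes, and without WT replicate 4, 3 were lower and 1 higher.

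Interferon-stimulated genes differed in both directions. Of 48 tested, 15 had a log2 fold change above 0, with a median of -0.14, and 7 were lower and 2 higher at an unadjusted p under 0.05, beside 3.5% and 2.23% of all tested genes. Among the lower were the ubiquitin-like Isg15 (log2 fold change -0.71, SE 0.26), the antiviral Mx1 (-0.84, SE 0.33), Rsad2 (-0.60, SE 0.24) and Ifit1 (-0.50, SE 0.22), and the guanylate-binding proteins Gbp3 (-0.70, SE 0.31) and Gbp2b (-0.74, SE 0.33). The groups overlapped for all 7 lower genes. Both higher genes were without overlap, beside 1.28% of all tested genes. Oas1g, of the oligoadenylate synthetases, was at 2.41, 0.687, 2.19 and 1.33 CPM across the WT-labelled and 2.96, 5.38, 4.65 and 4.22 CPM across the IRF5-KO-labelled libraries (log2 fold change 1.33, SE 0.41), few counts, so that its fold is imprecise. Ifi27l2a, an interferon-induced gene, was at 8.58, 8.93, 6.83 and 8.50 CPM across the WT-labelled and 13.5, 17.2, 11.2 and 9.35 CPM across the IRF5-KO-labelled libraries (0.65, SE 0.24). Without WT replicate 2 or without IRF5-KO replicate 3, 1 of the genes was lower and 2 were higher at this level.

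The upstream regions of Ifnb1 (chr4:88522795-88523044, minus strand) and Cxcl10 (chr5:92348890-92349139, minus strand) are shown as those of an interferon gene and of an interferon-inducible chemokine, from RefSeq (GRCm38.p6). Capitals mark the element core AANNGAAA, the TATA letters TATAAA and the Y box (CTGATTGG or its reverse complement), a site of the factor NF-Y.
Ifnb1: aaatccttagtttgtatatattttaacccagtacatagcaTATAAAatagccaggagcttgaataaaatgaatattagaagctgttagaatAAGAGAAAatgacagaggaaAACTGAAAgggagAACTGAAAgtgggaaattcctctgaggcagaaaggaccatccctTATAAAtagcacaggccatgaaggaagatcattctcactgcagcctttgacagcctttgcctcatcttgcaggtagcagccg
Cxcl10: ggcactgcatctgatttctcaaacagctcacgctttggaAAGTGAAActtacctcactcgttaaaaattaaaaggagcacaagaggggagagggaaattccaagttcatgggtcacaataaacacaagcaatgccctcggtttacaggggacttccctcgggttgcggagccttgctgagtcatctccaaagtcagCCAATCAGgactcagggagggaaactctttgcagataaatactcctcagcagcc
Ifnb1 held the element core at 159, 139 and 126 bases before its start and TATA letters at 210 and 82. Cxcl10 held the element core at 211 and the Y box at 54 on the opposite strand. The Y box letters occurred in 3.83% of the 32851 windows. Of 8 tested CXC chemokines with a window, 2 held the element core and 2 the Y box.

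MHC class II genes had a log2 fold change below 0 for all 9 tested members, and 7 had an unadjusted p under 0.05, beside 3.5% of all tested genes. Of the 9, 5 were without overlap, beside 1.75%, and the median log2 fold change was -0.44. Ciita, the coactivator on which these genes depend, was at 95.2, 99.2, 83.9 and 67.4 CPM in WT-labelled replicates 1 to 4 and 57.9, 47.1, 42.4 and 52.5 CPM in the IRF5-KO-labelled replicates. WT replicate 4 was the lowest WT library, and IRF5-KO replicate 1 the highest of its group, yet below it. The level was 1.73-fold lower (log2 fold change -0.79, SE 0.15, unadjusted p = 0.000213), the smallest p after the lysozyme genes, and its adjusted p was 0.639 in edgeR's quasi-likelihood test and 0.0193 in DESeq2's Wald test. Ciita overlaps Dexi on the opposite strand.

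Of the class II chains, H2-Aa (chromosome 17, 34282744 to 34287823) was at 1901, 1756, 1868 and 1577 CPM across the WT-labelled and 1218, 1174, 1479 and 1476 CPM across the IRF5-KO-labelled libraries, without overlap (log2 fold change -0.41, SE 0.13). Its partner H2-Ab1 was at 2821, 2722, 2721 and 2314 CPM across the WT-labelled and 1923, 1814, 2298 and 2173 CPM across the IRF5-KO-labelled libraries, also without overlap (-0.37, SE 0.13). H2-Eb1 was at 1688, 1585, 1648 and 1241 CPM across the WT-labelled and 1035, 1029, 1220 and 1248 CPM across the IRF5-KO-labelled libraries, and IRF5-KO replicate 4 lay just above WT replicate 4 (-0.44, SE 0.13). In each of these 3 genes WT replicate 4 was the lowest WT library. The invariant chain Cd74, which escorts class II molecules, was at 4864, 3557, 3987 and 2770 CPM across the WT-labelled and 2405, 2769, 2258 and 2734 CPM across the IRF5-KO-labelled libraries, where WT replicate 4 and IRF5-KO replicate 2 were nearly equal (log2 fold change -0.58, SE 0.17, unadjusted p = 0.00553). Of the genes for peptide loading, H2-DMb2 was at 5.63, 10.6, 5.19 and 3.72 CPM across the WT-labelled and 2.15, 1.34, 0.547 and 2.71 CPM across the IRF5-KO-labelled libraries, few counts but no overlap (-1.87, SE 0.48). H2-DMa overlapped slightly (-0.33, SE 0.13), and H2-DMb1 (-0.19, SE 0.12, unadjusted p = 0.141) did not reach an unadjusted p under 0.05. With any 1 library left out, 6 or 7 of the 9 genes kept an unadjusted p under 0.05, all lower, with a median between -0.49 and -0.35.

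The upstream regions of H2-Aa (chr17:34287824-34288073, minus strand) and H2-Eb1 (chr17:34305617-34305866, plus strand) are shown because class II promoters are known for a Y box (CTGATTGG), marked in capitals with the element core AANNGAAA (RefSeq, GRCm38.p6).
H2-Aa: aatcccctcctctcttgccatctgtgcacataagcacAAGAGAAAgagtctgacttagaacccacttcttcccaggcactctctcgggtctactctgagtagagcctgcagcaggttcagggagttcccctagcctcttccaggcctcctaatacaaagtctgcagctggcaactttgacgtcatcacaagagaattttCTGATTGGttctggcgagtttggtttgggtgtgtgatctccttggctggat
H2-Eb1: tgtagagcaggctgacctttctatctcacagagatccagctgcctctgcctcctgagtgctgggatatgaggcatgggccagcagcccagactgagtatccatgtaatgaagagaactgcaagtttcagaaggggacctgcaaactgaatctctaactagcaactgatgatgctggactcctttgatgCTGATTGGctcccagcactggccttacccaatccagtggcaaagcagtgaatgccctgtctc
The Y box lay 51 bases before the start of H2-Aa and 62 before that of H2-Eb1, and the element core of H2-Aa at 213. It was found in 2 of 6 class II genes with a window, against 3.83% of all windows. The match describes the letters of these windows only.

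**Figure D3:**
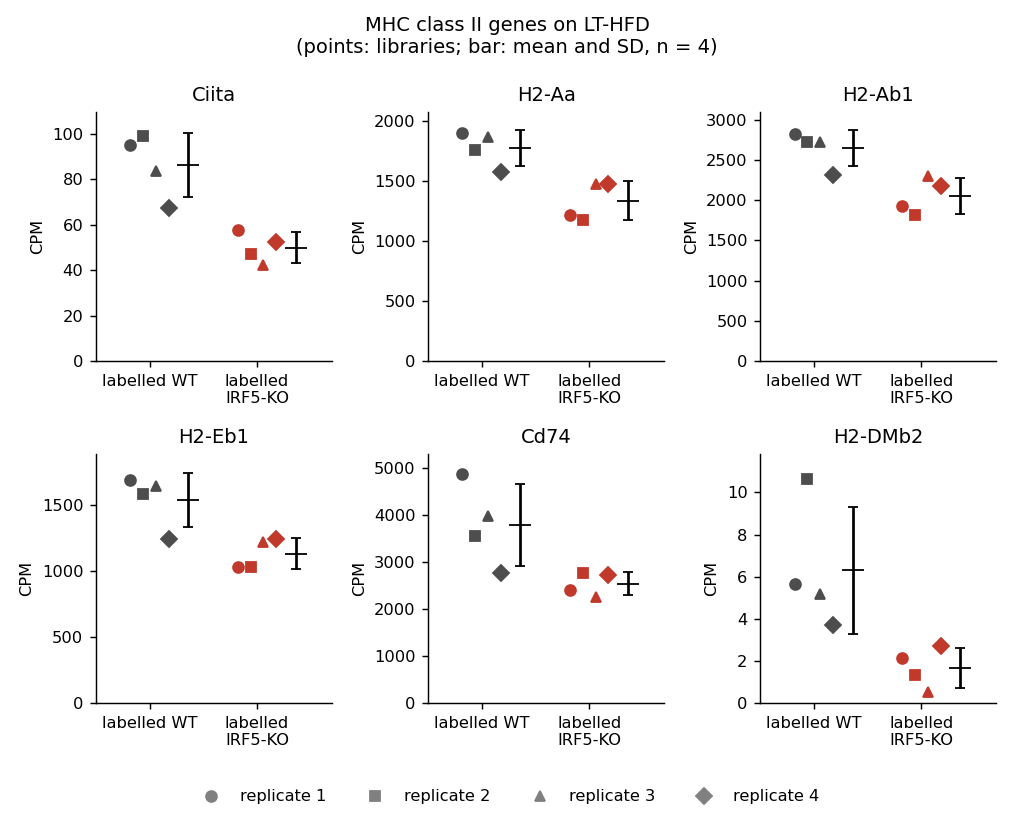
Level in CPM (vertical axes, from 0) of Ciita, 3 class II chains, Cd74 and H2-DMb2 in the libraries labelled WT (grey) and IRF5-KO (red) on LT-HFD, 1 point per library, with the mean and SD of each group. The IRF5-KO libraries lie lower in each panel, without overlap except for H2-Eb1, and WT replicate 4 is the lowest WT library.

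Genes of resident and alternatively activated macrophages had a log2 fold change below 0 for 25 of 28 tested members, with 14 at an unadjusted p under 0.05, all lower, beside 3.5% of all tested genes, and a median of -0.50. Of the 28, 1 gene, Mgl2, did not overlap, beside 1.75%. Mgl2, a galactose lectin, was at 308, 415, 189 and 212 CPM in WT-labelled replicates 1 to 4 and 102, 117, 74.2 and 182 CPM in the IRF5-KO-labelled replicates. IRF5-KO replicate 4 came close to the lowest WT libraries (log2 fold change -1.24, SE 0.29, unadjusted p = 0.00114). The mannose receptor Mrc1 was at 2238, 2646, 1832 and 1998 CPM across the WT-labelled and 1691, 1338, 1461 and 1879 CPM across the IRF5-KO-labelled libraries (log2 fold change -0.45, SE 0.15, unadjusted p = 0.0126), and again IRF5-KO replicate 4 reached into the WT values. Cd163, the haemoglobin scavenger receptor, was at 602, 844, 379 and 654 CPM across the WT-labelled and 318, 178, 230.5 and 602 CPM across the IRF5-KO-labelled libraries (-0.90, SE 0.34). Retnla, a gene of alternative activation, was at 783, 1619, 365 and 486 CPM across the WT-labelled and 203, 322, 157 and 562 CPM across the IRF5-KO-labelled libraries, with wide ranges in both groups (-1.39, SE 0.47). The folate receptor Folr2 (-0.50, SE 0.20), the phosphatidylserine receptor Timd4 (-0.94, SE 0.38), the lectins Cd209f (-1.11, SE 0.45), Cd209g (-1.08, SE 0.45) and Clec10a (-0.44, SE 0.19), the ficolin Fcna (-0.73, SE 0.30) and the transcription factor Maf (-0.49, SE 0.16) were also lower at an unadjusted p under 0.05.

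By role, all 19 resident markers were below 0 and 12 had an unadjusted p under 0.05 (median -0.70), while among 9 genes of alternative activation 3 were above 0 and 2 had an unadjusted p under 0.05 (median -0.26). The difference between these subsets was not tested. Summed over the list, the level was 28850 CPM in WT replicate 2 and 16530 to 20060 CPM in the other WT libraries, and 20040 CPM in IRF5-KO replicate 4 and 14630 to 15330 CPM in the others of its group. The count at an unadjusted p under 0.05 depended on single libraries. Without WT replicate 2 it was 3 lower and 1 higher with a median of -0.33, without IRF5-KO replicate 3 it was 4, without IRF5-KO replicate 2 it was 7, and without both replicates numbered 2, 1 gene was left.

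Genes of lipid-associated macrophages had a log2 fold change above 0 for 23 of 27 tested members, with a median of 0.48, and 4 had an unadjusted p under 0.05, beside 2.23% of all tested genes, and none was without overlap. Trem2, the lipid receptor that defines these cells, was at 155, 108, 178 and 109 CPM in WT-labelled replicates 1 to 4 and 176, 259.5, 243 and 128 CPM in the IRF5-KO-labelled replicates. IRF5-KO replicates 2 and 3 were the highest and IRF5-KO replicates 1 and 4 lay within the WT range (log2 fold change 0.55, SE 0.23, unadjusted p = 0.0348). Fabp4, a carrier of fatty acids that endothelial cells also express, was at 143, 123, 143 and 158 CPM across the WT-labelled and 152, 353, 233 and 176 CPM across the IRF5-KO-labelled libraries (0.69, SE 0.23, unadjusted p = 0.0107), and IRF5-KO replicates 2 and 3 were the highest. The 10 endothelial markers summed to 398 and 326 CPM there, 196 and 224 CPM in the other IRF5-KO libraries and 169 to 216 CPM in WT. Fabp4 is itself 1 of these 10 and makes up most of their sum, so the sum largely repeats its values. The part of endothelial cells in the Fabp4 and Cd36 values was not tested. The lysosomal acid lipase Lipa was at 344 to 571 CPM in WT and 453 to 831 CPM in IRF5-KO (0.48, SE 0.21) and the cathepsin Ctsd at 1343 to 2200 CPM in WT and 1699 to 3922 CPM in IRF5-KO (0.57, SE 0.26). The lipid droplet protein Plin2 was at 831, 629.6, 850.2 and 636 CPM across the WT-labelled and 797, 1727, 834 and 809 CPM across the IRF5-KO-labelled libraries, where only IRF5-KO replicate 2 exceeded the WT range (0.50, SE 0.24). The scavenger receptor Cd36 (0.38, SE 0.17), Spp1, which encodes osteopontin (0.68, SE 0.33), Gpnmb (0.68, SE 0.46) and Cd9 (0.59, SE 0.31) had an unadjusted p above 0.05, while the lipoprotein Apoe (-0.05, SE 0.17) and the integrin Itgax (-0.02, SE 0.32) lay near 0.

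The summed level of the lipid-associated genes was 37210 CPM in IRF5-KO replicate 2 and 21330 to 24690 CPM in the other IRF5-KO libraries, against 18800 to 26360 CPM in WT. Without IRF5-KO replicate 2, 1 gene had an unadjusted p under 0.05 and the median was 0.17, without WT replicate 3 it was 18 genes and 0.64, and without both replicates numbered 2 it was 0 genes and 0.07, with 17 of 27 above 0. Over all genes, the number higher at that level was 162 of 11184 without IRF5-KO replicate 2, 490 of 11203 without WT replicate 3 and 135 of 11093 without the pair. Without WT replicate 2 or WT replicate 4, 1 lipid-associated gene was also left, and without IRF5-KO replicate 4 there were 10. In the fit over all 16 libraries, 0 of the 27 had an unadjusted p under 0.05 for this comparison, with DESeq2's Wald test 8 of 28, and without a filter on low counts 14 of 28, while over all genes 297 of 11560, 230 of 19559 and 492 of 19559 were higher. WT replicate 2 had the highest sum of the resident list and IRF5-KO replicate 2 that of the lipid-associated list.

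**Figure D4:**
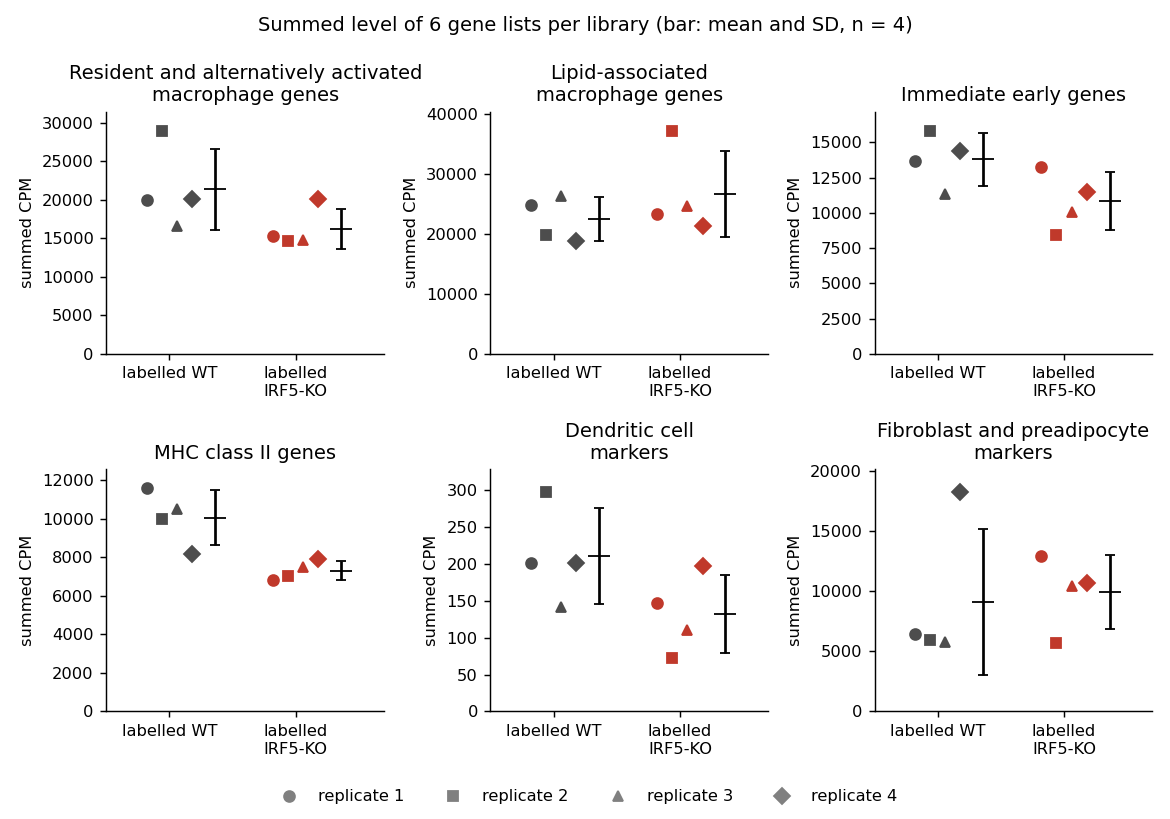
Summed CPM per library (vertical axes, from 0) of 6 gene lists in the libraries labelled WT (grey) and IRF5-KO (red) on LT-HFD, with a symbol for each replicate number and the mean and SD. The MHC class II sum does not overlap between groups, whereas WT replicate 2 stands out in the resident sum, IRF5-KO replicate 2 in the lipid-associated sum and WT replicate 4 in the fibroblast sum.

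Dendritic cells also carry MHC class II. Of 15 of their markers, 9 passed the filter, 8 of these were below 0 and 3 had an unadjusted p under 0.05, all lower, beside 3.5% of all tested genes, with a median of -0.65. They were Ccl22, given above, the lectin Cd209a at 42.6, 86.2, 20.5 and 49.9 CPM across the WT-labelled and 25.1, 9.95, 10.9 and 38.6 CPM across the IRF5-KO-labelled libraries (log2 fold change -1.23, SE 0.46) and the transcription factor Batf3 at 23.1, 34.7, 19.1 and 22.6 CPM across the WT-labelled and 13.2, 10.2, 16.7 and 21.7 CPM across the IRF5-KO-labelled libraries (-0.68, SE 0.25). Zbtb46, a transcription factor of conventional dendritic cells, was at 10.5 to 19.1 CPM in WT and 4.84 to 14.0 CPM in IRF5-KO (-0.65, SE 0.31, unadjusted p = 0.0562). The defining markers Flt3, Xcr1, Clec9a, Itgae and Siglech did not pass the filter on low counts. The summed level of the 15 markers was 142 to 298 CPM in WT and 72.35 to 197 CPM in IRF5-KO. The sums overlapped between groups, and the part of dendritic cells in the class II and Ccl22 values was not tested. B and plasma cell markers, another source of class II, summed to 383 to 474.5 CPM in WT and 287 to 480.2 CPM in IRF5-KO, of which 5 of 10 were tested and none had an unadjusted p under 0.05. Without WT replicate 2 the count of dendritic cell markers was 1, and without IRF5-KO replicate 4 it was 7.

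Of 17 tested complement genes, 7 were above 0, and 4 were lower and 1 higher at an unadjusted p under 0.05, beside 3.5% and 2.23% of all tested genes, with a median of -0.10. C1qa, a chain of the first component, was at 1292, 1645, 1361 and 1364 CPM in WT-labelled replicates 1 to 4 and 1118, 892, 1205 and 1179 CPM in the IRF5-KO-labelled replicates, without overlap (log2 fold change -0.37, SE 0.13, unadjusted p = 0.0182). C1qc was at 1196, 1527, 1254 and 1243 CPM across the WT-labelled and 1066, 965, 1065 and 1123 CPM across the IRF5-KO-labelled libraries, also without overlap (-0.31, SE 0.12), and C1qb overlapped (-0.23, SE 0.12, unadjusted p = 0.0767). Properdin, Cfp (-0.44, SE 0.20), was also lower at that level and overlapped. The higher gene was Cd59a, an inhibitor of the membrane attack complex, at 1.88, 0.687, 3.01 and 0.266 CPM across the WT-labelled and 4.04, 5.92, 3.56 and 2.41 CPM across the IRF5-KO-labelled libraries, few counts and an overlap (1.41, SE 0.56). Without WT replicate 2, no complement gene had an unadjusted p under 0.05. Of 6 Fc gamma receptors, the inhibitory Fcgr2b was lower at this level, beside 3.5% of all tested genes (-0.61, SE 0.20). Of 17 scavenger and clearance receptors, 2 were lower and 2 higher (beside the same shares), namely Olr1, the receptor of oxidised low-density lipoprotein, at 5.10, 9.27, 4.65 and 3.98 CPM across the WT-labelled and 1.62, 1.08, 3.01 and 0.603 CPM across the IRF5-KO-labelled libraries (-1.81, SE 0.47, few counts but no overlap), Timd4, the integrin Itgav (0.59, SE 0.19) and the hyaluronan receptor Stab2 (0.94, SE 0.36). Without WT replicate 3, 5 of the 17 receptors were higher and 2 lower, and without WT replicate 2 or IRF5-KO replicate 2, 1 was higher and 1 lower.

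Matrix genes had more members above 0. Of 21 tested collagen chains, 17 were above 0 with a median of 0.26, and 1 had an unadjusted p under 0.05, near the 2.23% of all tested genes that were higher, the basement membrane chain Col18a1 at 22.0, 11.7, 15.0 and 43.0 CPM across the WT-labelled and 55.2, 44.4, 35.9 and 28.4 CPM across the IRF5-KO-labelled libraries (log2 fold change 0.83, SE 0.35). Col1a1 was at 294 to 675 CPM in WT and 356 to 638 CPM in IRF5-KO (0.26, SE 0.26) and Col3a1 at 1150 to 2833 CPM in WT and 1204 to 2850 CPM in IRF5-KO (0.21, SE 0.30), which did not differ beyond the spread. The collagen sum and the fibroblast sum were both highest in WT replicate 4. Both lists contain Col1a1, Col1a2 and Col3a1, so these sums and the counts below are not independent. For collagens, WT replicate 4 had 7685 CPM and the other WT libraries 3078 to 3617 CPM, against 3729 to 7448 CPM in IRF5-KO. Without WT replicate 4, 15 of 21 collagen chains and 10 of 14 fibroblast markers had an unadjusted p under 0.05, all higher, with medians of 0.65 and 0.76, while over all genes the number higher at that level went from 245 of 10987 to 492 of 11141, and in the 8 libraries 1 collagen chain and 0 fibroblast markers passed it. With 1 library left out, the medians ranged from 0.06 to 0.65 for collagen chains and from -0.0068 to 0.76 for fibroblast markers. In the 8 libraries they were 0.26 and 0.16, and without IRF5-KO replicate 1, 0 collagen chains passed that level. The part of fibroblasts in the collagen values was not tested. Of 35 matrix remodelling enzymes, 1 was lower and 1 higher at this level, shares near the 3.5% and 2.23% of all tested genes. The gelatinase Mmp9 was at 26.0, 77.9, 163 and 38.2 CPM across the WT-labelled and 14.8, 7.26, 12.0 and 49.8 CPM across the IRF5-KO-labelled libraries (-1.88, SE 0.63), where only IRF5-KO replicate 4 lay within the WT range. The metalloproteinase Adam8 was at 136 to 358 CPM in WT and 249 to 584 CPM in IRF5-KO (0.74, SE 0.34). Without WT replicate 4, 14 of 36 enzymes were higher and 1 lower, beside the 492 of 11141 genes that were higher. Of 27 genes of the TGF-beta pathway, its target Tgfbi was the 1 gene with an unadjusted p under 0.05, beside 5.72% of all tested genes (-0.61, SE 0.21). Without WT replicate 4, 4 of the pathway's genes were higher and 2 lower, beside the 492 and 504 of 11141 genes. Fn1, the gene of fibronectin, was at 513 to 858 CPM in WT and 347 to 579 CPM in IRF5-KO (-0.47, SE 0.19, unadjusted p = 0.0341).

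Immediate early genes, which are induced rapidly by stimuli and by tissue handling, were below 0 for 22 of 23 tested members, and 5 had an unadjusted p under 0.05, all lower, beside 3.5% of all tested genes, with a median of -0.34. Ier3, a survival gene of NF-kB, was at 97.1, 182, 77.9 and 119 CPM in WT-labelled replicates 1 to 4 and 72.4, 53.8, 51.2 and 72.1 CPM in the IRF5-KO-labelled replicates, without overlap (log2 fold change -0.93, SE 0.24, unadjusted p = 0.00215). The transcription factors Egr1 (-0.60, SE 0.20) and Junb (-0.53, SE 0.19), Ier5 (-0.59, SE 0.18) and Zfp36, given above, were the others. Fos was at 1375 to 1808 CPM in WT and 1168 to 1718 CPM in IRF5-KO (-0.16, SE 0.14) and Jun at 1363 to 2390 CPM in WT and 972 to 1972 CPM in IRF5-KO (-0.41, SE 0.23). The summed level was 11330 to 15820 CPM in WT, highest in replicate 2, and 8460 to 13280 CPM in IRF5-KO, lowest in replicate 2. The part of handling in the cytokine and chemokine values, several of which had the same highest or lowest libraries, was not tested. The count was 4 without WT replicate 2 and 13 without IRF5-KO replicate 1, and 2 without both replicates numbered 2. With 1 library left out, the median of the list ranged from -0.51 to -0.20.

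For metabolism, none of 21 tested genes of fatty acid oxidation, 25 of glucose uptake and glycolysis or 21 of cholesterol synthesis had an unadjusted p under 0.05, with medians of 0.03, 0.02 and 0.14. Of 74 nuclear genes of the respiratory chain, 1 did, beside 5.72% of all tested genes, the complex I subunit Ndufa11 at 15.8, 18.5, 18.04 and 18.1 CPM across the WT-labelled and 24.8, 20.4, 23.3 and 21.7 CPM across the IRF5-KO-labelled libraries, without overlap (log2 fold change 0.36, SE 0.14), and the median was 0.04. The 8 tested mitochondrially encoded genes were all below 0 (median -0.18), none at an unadjusted p under 0.05, with mt-Nd1 at 1348 to 1834 CPM in WT and 1125 to 1414 CPM in IRF5-KO (-0.25, SE 0.14). Of 23 genes of mitochondrial cristae and dynamics, the fission factor Mff was higher, beside 2.23% of all tested genes (0.31, SE 0.13, unadjusted p = 0.0421), and the median was 0.07. Ghitm, the gene of a cristae protein that the study examined, was at 76.2, 65.9, 58.8 and 82.0 CPM across the WT-labelled and 75.7, 88.8, 69.3 and 77.5 CPM across the IRF5-KO-labelled libraries, and the groups overlapped (log2 fold change 0.14, SE 0.13, adjusted p = 0.929 in the edgeR quasi-likelihood test (Benjamini-Hochberg adjustment)). Of 76 mitochondrial ribosomal protein genes, 5 were higher and 2 lower at an unadjusted p under 0.05, beside 2.23% and 3.5% of all tested genes (median 0.07), and of 80 cytosolic ribosomal protein genes none (median -0.04). Without IRF5-KO replicate 2, or without IRF5-KO replicate 3, 2 mitochondrial ribosomal protein genes were higher and 2 lower, with a median of 6e-04 in the former case, and without both replicates numbered 2, 0 were higher. Without WT replicate 3, 3 cholesterol synthesis genes and 2 glycolysis genes were higher, and without IRF5-KO replicate 4, 2 glycolysis genes were lower and 1 gene of fatty acid oxidation was higher and 1 lower.

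Of 31 tested genes of cathepsins and the lysosome, 2 were higher, Ctsd among them, and 2 lower, the cathepsins Ctsh (log2 fold change -0.41, SE 0.15) and Ctsc (-0.42, SE 0.16), at an unadjusted p under 0.05, beside 2.23% and 3.5% of all tested genes, with a median of 0.03, and without WT replicate 2 none of the 31 passed that level, whereas without WT replicate 3, 8 were higher and 2 lower. Cell cycle genes were above 0 for 26 of 31 (median 0.31), and 1, the kinesin Kif20a, had an unadjusted p under 0.05, near the 2.23% of all tested genes, at 3.09 to 8.47 CPM in WT and 7.81 to 13.2 CPM in IRF5-KO (0.84, SE 0.33). The proliferation marker Mki67 was at 31.1 to 63.4 CPM in WT and 36.2 to 63.8 CPM in IRF5-KO (0.00, SE 0.23). Without WT replicate 3, 10 of the 31 genes were higher at an unadjusted p under 0.05, as were 490 of all 11203 genes in that fit, and without both replicates numbered 2 none did, with a median of 0.02.

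**Figure D5:**
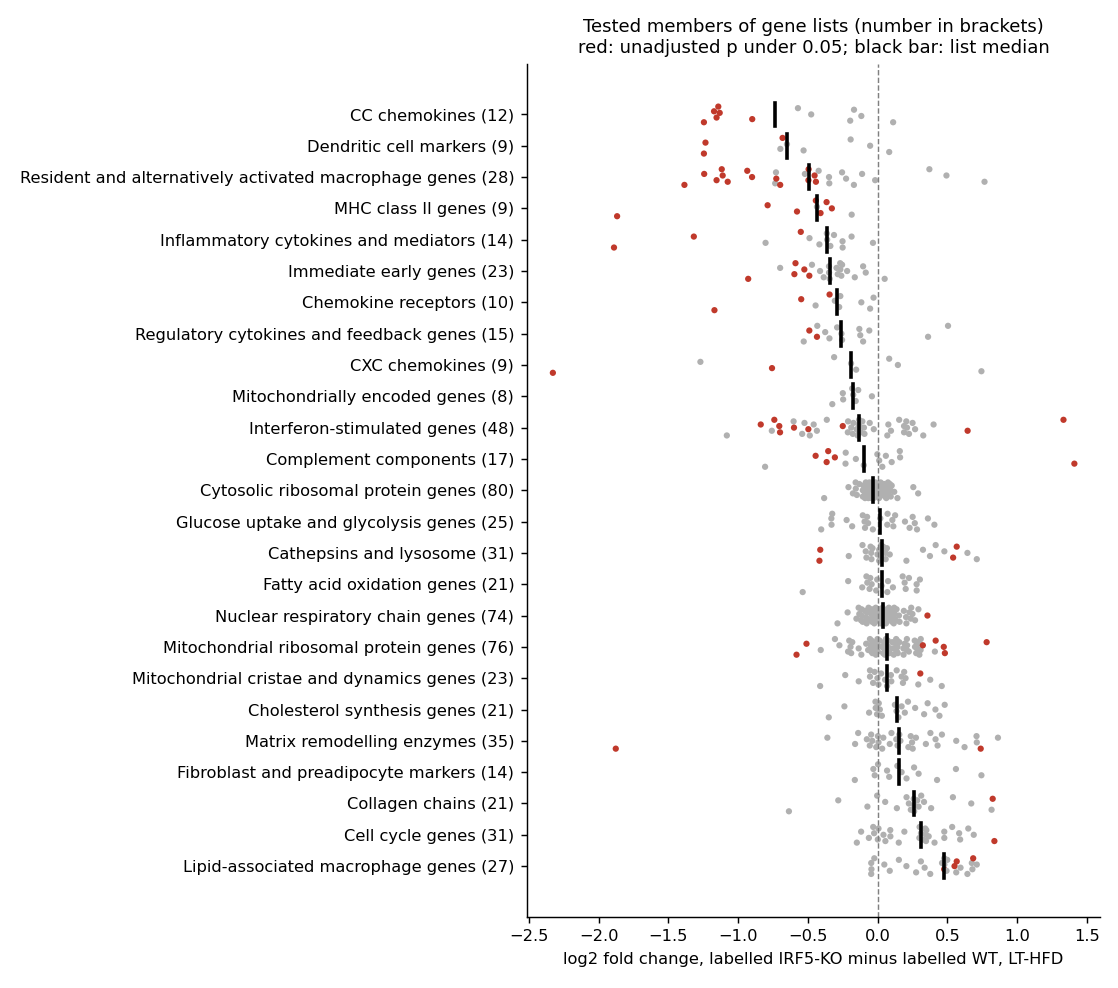
Log2 fold change (horizontal axis, IRF5-KO minus WT on LT-HFD) of every tested member of 25 gene lists (vertical axis, number of tested members in brackets), with members at an unadjusted p under 0.05 in red and a black bar at each list's median. Medians run from -0.74 for CC chemokines to 0.48 for lipid-associated macrophage genes, and the ribosomal and metabolic lists lie near 0.

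Among the other genes with the smallest p and no overlap between groups, several lower ones had larger differences. Plbd1, a phospholipase B-like gene, was at 94.4, 104, 88.8 and 48.1 CPM in WT-labelled replicates 1 to 4 and 34.5, 24.2, 24.6 and 46.8 CPM in the IRF5-KO-labelled replicates. WT replicate 4 and IRF5-KO replicate 4 nearly met (log2 fold change -1.37, SE 0.26, unadjusted p = 0.000235). Dnase1l3, a secreted nuclease of macrophages and dendritic cells, was at 11, 15.1, 8.47 and 9.29 CPM across the WT-labelled and 1.89, 2.15, 0.547 and 4.83 CPM across the IRF5-KO-labelled libraries, few counts in the latter (-2.22, SE 0.45, unadjusted p = 0.000407). Acpp, an acid phosphatase gene, was at 3.49, 6.52, 5.47 and 4.25 CPM across the WT-labelled and 1.62, 1.08, 0.274 and 2.11 CPM across the IRF5-KO-labelled libraries (-1.93, SE 0.47), where 1 IRF5-KO library had a single count. Tmem176a, a membrane protein of dendritic cells and macrophages that overlaps Tmem176b on the opposite strand, was at 58.5, 80.0, 108 and 59.5 CPM across the WT-labelled and 41.7, 25.8, 41.1 and 50.1 CPM across the IRF5-KO-labelled libraries (-0.95, SE 0.23). Naaa, which hydrolyses N-acylethanolamines (-0.60, SE 0.14), Susd3 (-0.63, SE 0.13) and Simc1, deposited as 4732471D19Rik (-1.22, SE 0.28), completed the 12 with Lyz2, Ciita, Ccl8, Ccl12 and Mgl2.

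In the other direction the metalloproteinase Adamts7 was at 1.34, 0.687, 0.547 and 1.33 CPM across the WT-labelled and 4.31, 3.23, 3.29 and 3.32 CPM across the IRF5-KO-labelled libraries (log2 fold change 1.80, SE 0.41, unadjusted p = 0.00102). The histone gene Hist1h4c was at 20.9, 19.2, 23.0 and 19.4 CPM across the WT-labelled and 27.2, 32.5, 38.9 and 30.5 CPM across the IRF5-KO-labelled libraries (0.64, SE 0.15), and Rcan1, a regulator of calcineurin, at 27.9, 22.3, 29.2 and 26.0 CPM across the WT-labelled and 42.5, 55.4, 34.5 and 32.0 CPM across the IRF5-KO-labelled libraries (0.64, SE 0.18). In these 3 genes the highest WT value stayed below the lowest IRF5-KO value. The membrane protein Dcbld2 (0.76, SE 0.20), the antiporter gene Tmco3 (0.62, SE 0.16), the kinase Cdk20 (0.68, SE 0.19), the RNA-binding Cpeb1 (1.22, SE 0.34), the transporter Slc45a3 (1.35, SE 0.39), the GTPase Rab4a (1.53, SE 0.44) and Dip2c (0.53, SE 0.16) were also among the 12 with Lyz1. Adamts7, Cpeb1, Slc45a3 and Rab4a had at most 29 counts in any library, so their folds are imprecise.

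Whether the genotype effect on LT-HFD differed from that on ST-HFD was tested by the interaction over all 16 libraries. No gene of 11560 (0%) passed an adjusted p of 0.05 in the edgeR quasi-likelihood test, none did in DESeq2's Wald test, and 454 (3.93%) had an unadjusted p under 0.05 in the former and 537 in the latter. Of 13 CC chemokines in this fit, 5 had an unadjusted interaction p under 0.05, beside these 3.93%. The median genotype effect of the list was 0.32 on ST-HFD. For Ccl12 the log2 fold change was 0.45 after ST-HFD against -1.17 after LT-HFD (difference -1.61, SE 0.54, unadjusted p = 0.00857). Ccl22 (-1.80, SE 0.73), Ccl24 (-1.49, SE 0.62) and Ccl7 (-1.40, SE 0.62) differed in the same direction, whereas Ccl8 (-1.01, SE 0.50, unadjusted p = 0.0570) did not pass that level. Cxcl10 (-1.43, SE 0.54), Ifnb1 (-1.85, SE 0.70) and Ier3 (-1.27, SE 0.45) did pass it. Of 9 class II genes 1 did, H2-DMb2 (-1.98, SE 0.81), while Ciita had -0.13 on ST-HFD and a difference of -0.66 (SE 0.33, unadjusted p = 0.0635). Of 28 resident and alternatively activated genes 6 did, Mgl2 (-1.21, SE 0.54) among them, and of 27 lipid-associated genes none.

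The genes with the smallest interaction p in each direction were of other kinds. For Simc1 it was 0.25 after ST-HFD against -1.22 after LT-HFD (difference -1.47, SE 0.35, unadjusted p = 0.000575), and Sh2d1b1, an adaptor of signalling lymphocytic receptors, -0.89 and 0.90 (1.80, SE 0.43). The transporter Slc45a3 had -1.08 and 1.35 (2.44, SE 0.62). Tns4, Foxn3, Hspa2 and Zc3h18 were the others with a lower effect on LT-HFD, with differences from -1.67 to -0.55, and Yipf2, Glt8d1 and Hist1h2bb those with a higher effect, from 0.91 to 1.52. The adjusted p of these 10 genes was 0.969 in the edgeR quasi-likelihood test (Benjamini-Hochberg adjustment).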

How the data were processed

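Total RNA of F4/80+ cells was made into 16 libraries with a stranded, ribosome-depleted kit. The authors trimmed reads with fastp 0.19.11 and aligned them with STAR 2.7.3a to mm10 (mm9 is also listed in the submitters' processing notes, with no role), and deposited raw counts per gene. The annotation release, strand setting and handling of multi-mapped reads are not given in the sources used here. Genes were placed by identifier on GENCODE M21 (GRCm38), and promoter windows came from RefSeq (GRCm38.p6).

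The counts of the 8 LT-HFD libraries were filtered (filterByExpr), scaled by TMM and tested with the edgeR quasi-likelihood test (edgeR 4.0.16, R 4.3.3, Benjamini-Hochberg adjustment), IRF5-KO against WT, and the interaction with diet duration over all 16. The script was tested on simulated data. Alternatives were DESeq2 1.42.0, limma 3.58.1 (voom with sample weights), other size factors, filters, a replicate block, all 16 libraries in 1 fit, 3 abundant features left out and leave-one-out. Leaving out 2 libraries at once was added after the data were seen.

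Members and gene lists were chosen with earlier results of these data known. The genes named were Irf5, Lyz1, Lyz2, Adgre1 and Ghitm, those of smallest p among genes without overlap (at most 12 per direction), list members by p or level, 5 in each direction by interaction p, and neighbours within 5 Mb. Not every gene so chosen is described, and a few are not reported here. Totals of 3279332 to 3792898 counts per library limit the precision of genes with few counts.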

Additional observations from a re-analysis of the deposited data

Results flagged for a closer look

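Of 296 groups of 4 libraries examined, 17 held a library far from the other 3 by Dixon's test, and chance flags about 1 in 20 groups. Among the lysozyme genes, Lyz2 was 2009 CPM in IRF5-KO replicate 3 and 1649 to 1687 CPM in the others of its group, still below every WT library.

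WT replicate 2 was far above the other WT libraries for Saa3 (138.7 CPM), Cd40 (74.5 CPM) and Cd209f (469 CPM), and for the summed mitochondrially encoded genes (9727 CPM). WT replicate 4 was so for the summed collagen chains (7685 CPM) and fibroblast markers (18240 CPM), and for Cpeb1 (3.452 CPM). WT replicate 3 was so for Cxcl13 (187.5 CPM) and WT replicate 1 for Rab4a (2.146 CPM).

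In IRF5-KO, replicate 2 was far above the others for Plin2 (1727 CPM) and Rab4a (6.455 CPM), replicate 4 for Cxcr3 (4.524 CPM), Tmco3 (31.67 CPM) and the summed resident and alternatively activated genes (20040 CPM), and replicate 1 for Adamts7 (4.309 CPM). For Zc3h18, replicate 3 was far below the others, at 20.53 CPM.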

How the results depend on the processing

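The number of genes with an adjusted p under 0.05 was 2, and it was 6 without a filter, 6 with DESeq2, 0 with the replicate block, 1 without both replicates numbered 2, 0 without WT replicate 4 and IRF5-KO replicate 1, and 0 to 2 with 1 library left out. At an unadjusted p under 0.05, 492 genes were higher without a filter, 135 and 389 without these pairs, and 151 to 492 with 1 library left out; 590 were lower without a filter, 156 without both replicates numbered 2, and 169 to 567 with 1 library left out. At that p and past 1 on the log2 scale, 196 genes were higher without a filter, 15 with the stricter filter, 80 with DESeq2, 80 with voom, 96 without WT replicate 4 and IRF5-KO replicate 1, and 25 to 146 with 1 library left out. Lower were 201 without a filter, 24 with the stricter filter, 99 with DESeq2, 64 with all 16 libraries, 22 and 70 without the pairs, and 23 to 112 with 1 library left out. Without a filter 219 genes lay above WT without overlap. The interaction count at an unadjusted p under 0.05 was 921 without a filter and 301 to 731 with 1 library left out.

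Of the list medians given above, those that moved by more than the spread between libraries were, over the leave-out settings with the pairs, CC chemokines (-1.26 to -0.37; -1.12 to -0.51 with 1 library left out), regulatory cytokines (-0.33 to -0.11), lipid-associated genes (0.0722 to 0.64), fatty acid oxidation (-0.0616 to 0.10), complement (-0.16 to -0.0585), matrix enzymes (0.0627 to 0.56) and cholesterol synthesis (-0.0332 to 0.39). Counts of list members at an unadjusted p under 0.05 that moved with another fit, beside those given above, included 8 of 15 dendritic cell markers, 9 of 24 immediate early genes, and 8 higher and 2 lower cathepsin and lysosome genes without a filter, 2 immediate early genes and 2 higher and 1 lower interferon-stimulated genes with all 16 libraries, 7 collagen chains with voom, and 2 higher and 2 lower mitochondrial ribosomal protein genes with DESeq2. Of the matrix remodelling enzymes, 5 of 41 were higher and 2 lower without a filter, and 5 of 35 higher and 1 lower with voom. The causes were not tested beyond the fewer genes or libraries in each fit.

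The replicate numbers did not pair the libraries, since same-numbered WT and IRF5-KO libraries correlated at -0.0976, -0.119, 0.0534 and 0.254 over 9601 genes, and not every library correlated best with its own number. With the replicate block 601 genes had an unadjusted p under 0.05. The adjusted p of Lyz1 was then 0.35 and that of Lyz2 0.285, so neither passed. Depth of 3279332 to 3792898 counts leaves genes of a few counts imprecise.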
